A study of Ovis aries with 16 samples.

Results

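Small non-coding RNA of the liver was compared between adult female Suffolk sheep that had been exposed to bisphenol A (BPA) before birth and sheep whose mothers had received the vehicle alone. All liver libraries of the series were used, 8 of its 16 libraries, and each is the liver of a different animal. The control animals are sheep 902, 908, 924 and 928, whose mothers were injected under the skin with corn oil. The BPA animals are sheep 910, 918, 977 and 984, whose mothers were injected every day with 0.5 mg BPA per kg in corn oil, and in both groups the injections ran from gestation day 30 to day 90. The offspring themselves received no BPA per the labels' protocols. All 8 were adult, about 21 months old, and had been fasted for 48 hours. Their cycles had been brought into step with 2 injections of prostaglandin F2α, and the tissue was taken 24 hours after the last of these. Liver came from the tip of the left lobe, so each library holds a mixture of cell types, and in such bulk tissue fewer cells of a type and less RNA per cell cannot be told apart. The other 8 libraries are thigh muscle of the same animals and serve here only as a contrast.

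BPA is a plastics monomer that binds oestrogen receptors, and exposure in the womb is studied as a way in which the metabolism of the adult offspring may be set. MicroRNAs (miRNAs) are short RNAs that bind messenger RNAs and lower their translation and stability. Small nucleolar RNAs (snoRNAs) guide the chemical modification of ribosomal and spliceosomal RNA and are mostly cut out of the introns of host genes, while small nuclear RNAs (snRNAs) are the RNA cores of the splicing machinery. Long non-coding RNA (lncRNA) loci often contain the genes of such small RNAs, and reads from a library of short fragments can fall on either.

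A deposited value is the number of reads of a transcript over a size factor of the library, and that factor was set anew for each of the 4 RNA classes. Such a value therefore compares a transcript with the others of its class, and the reads behind it, which could be recovered, compare the classes with each other. The 4 classes held 159650 to 335387 reads per control liver and 710101 to 1712187 per BPA liver, so depth and treatment cannot be told apart, and the part of depth in the results was tested only by thinning the reads. The labels also carry a library code, whose meaning they do not give. Control 902 (code 65) and BPA 977 and 984 (codes 71 and 72) share the range of codes up to 79, BPA 910 and 918 have codes 95 and 96, and the other 3 controls have higher codes, so beyond these 3 livers code range and treatment cannot be told apart. The liver-enriched MIR148A and MIR194 were at 36621 to 50982 and 7863 to 10615 in control livers and at 31377 to 56888 and 9222 to 9821 in BPA livers, while the other 5 of the 7 liver-enriched miRNAs looked for, miR-122 and miR-192 among them, are not listed in the miRNA table. The striated-muscle miRNA MIR133 was at 717 in control 902 and 574 in BPA 984, against 115 to 164 in the other 6 livers.

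The makeup of the small RNA pool differed between the groups. miRNAs gave 59.1%, 74.6%, 66.6% and 60.2% of the reads in control livers 902, 908, 924 and 928, and 80.8%, 81.4%, 84.7% and 85.5% in BPA livers 910, 918, 977 and 984. snRNAs gave 24.4%, 9.28%, 17.4% and 22.3% of the control reads and 0.226%, 0.133%, 0.161% and 0.117% of the BPA reads, a mean log2 difference of -6.80. snoRNAs gave 5.01%, 3.29%, 2.46% and 4.08% in controls and 2.36%, 2.20%, 1.02% and 0.807% in BPA livers, a mean log2 difference of -1.32. For each of these classes every BPA liver lay on one side of every control liver (exact permutation test over 70 assignments, two-sided, p = 0.0286, the smallest it can give, and 0.0286 when adjusted for the 4 classes by Benjamini-Hochberg). Shares add up to a fixed total, so a fall of 1 class raises the others. The lncRNA share was higher in BPA livers (13.6% to 16.6% against 11.5% to 13.5%, log2 difference 0.24, exact permutation adjusted p = 0.0286), but lncRNA reads per 100 miRNA reads were 17.3 to 22.2 in controls and 15.9 to 20.6 in BPA livers and overlapped (log2 difference -0.12, exact permutation adjusted p = 0.343). Within the shared code range, the log2 differences between control 902 and BPA 977 and 984 were 0.52 for miRNAs, -2.47 for snoRNAs and -7.47 for snRNAs.

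**Figure D1:**
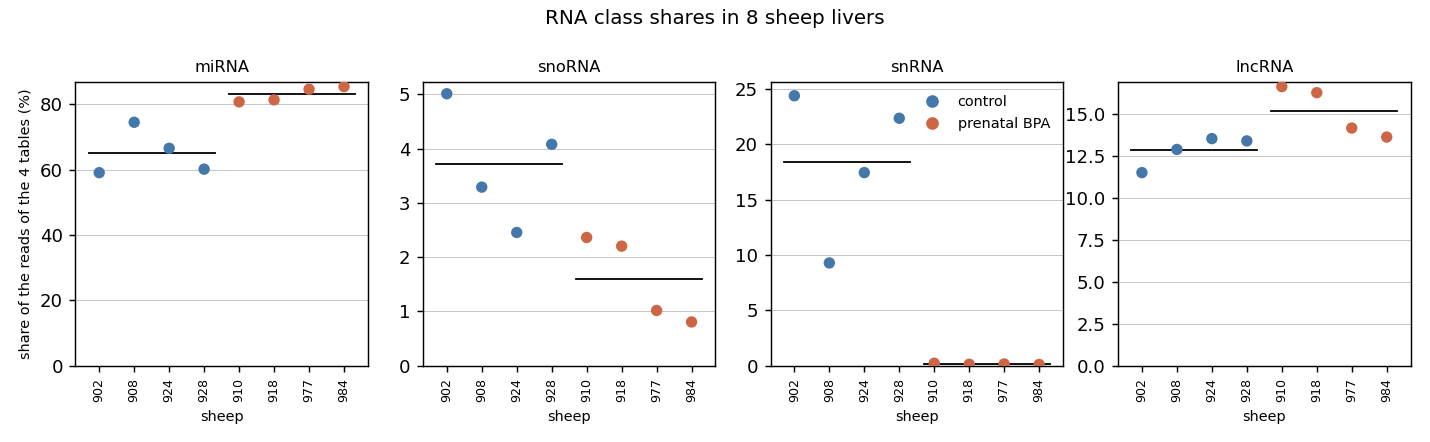
Share of the reads of the 4 tables (%, linear axis from 0) that each RNA class took in each of the 8 livers, with control livers in blue, BPA livers in orange and a black line at each group's mean. The snRNA share was 9.28% to 24.4% in control livers and 0.117% to 0.226% in BPA livers.

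Within the miRNA class, 9 of 78 tested miRNAs were called at an adjusted p under 0.05, or 11.5%, of which 5 rose (6.41%) and 4 fell (5.13%) (limma on log2(deposited value + 1), Benjamini-Hochberg adjustment over the table). With 1 size factor over the 4 tables, 65 miRNAs were called, all 65 of them higher and 0 lower. MIR200B, MIR409, MIR125B, MIR25 and MIR22 rose, and MIR30B, MIR26B, MIR154A and MIR381 fell. For all 9 the 4 BPA livers lay on one side of the 4 control livers, which was so for 16.7% of all tested miRNAs. The position of BPA livers 977 and 984 against control 902, within the shared code range, follows from that and is no separate check. The BPA livers were not alike among themselves. For 7 of the 9 miRNAs sheep 910 and 918 both lay farther from the controls than sheep 977 and 984, and for 1, MIR26B, the order was the opposite.

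MIR200B belongs to the miR-200 family, which keeps epithelial cells in the epithelial state and in liver is known from bile duct cells. It was at 308, 453, 244 and 174 in control livers and at 1124, 1395, 1211 and 980 in BPA livers. The lowest BPA liver was thus well above the highest control (log2 difference 2.07 ± 0.30 SE, limma adjusted p = 7.08e-04). It rests on 55 to 306 reads per control liver and 1822 to 4236 per BPA liver. MIR200B was also the single miRNA that was called in the same direction in each of 17 settings, with log2 differences from 1.82 to 3.53 and a highest limma, edgeR or DESeq2 adjusted p of 0.0244. MIR409, MIR30B and MIR26B were each called in 16 of 17. The setting with 1 size factor over the 4 tables called 65 miRNAs higher and 0 lower, so no fall passed every setting. MIR200A, its neighbour in the genome and of the same family, was at 560, 823, 428 and 295 in control livers and at 324, 395, 561 and 547 in BPA livers, and the groups overlapped (log2 difference -0.14 ± 0.33 SE, limma adjusted p = 0.903). MIR200C, of the same family, also overlapped (12.7 to 90.9 against 31.7 to 175).

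MIR30B, of the miR-30 family, was at 983, 1364, 1445 and 1442 in control livers and at 208, 233, 541 and 584 in BPA livers. Sheep 910 and 918 were the lowest, and no BPA liver reached the lowest control (log2 difference -1.87 ± 0.35 SE, limma adjusted p = 0.0048). With 1 size factor over the 4 tables the call was lost (log2 difference of MIR30B -0.41, limma adjusted p = 0.458). The other 3 tested family members did not pass, with MIR30A at 14055 to 20290 in controls and 8906 to 14752 in BPA livers (log2 difference -0.59, limma adjusted p = 0.0593), MIR30C at a log2 difference of 0.03 and MIR30D at 0.18.

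MIR26B, a miRNA of a family that restrains growth and is encoded within genes of small phosphatases, was at 19810, 18611, 15016 and 26713 in control livers and at 10864, 11330, 8847 and 7893 in BPA livers (log2 difference -1.03 ± 0.20 SE, limma adjusted p = 0.0055). Its close relative MIR26A, the most abundant miRNA of the control livers, was at 45176 to 57564 in controls and 46512 to 61465 in BPA livers (log2 difference 0.05). The direction of MIR26B depends on the scale: with 1 size factor over the 4 tables it was at 0.44 (limma adjusted p = 0.241), and that scale moved the median of all miRNAs from 0.05 to 1.51.

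MIR125B, known for its place beside let-7 genes and for acting on p53, was at 2116, 4451, 4485 and 3885 in control livers and at 11927, 10611, 6934 and 4716 in BPA livers. Sheep 984 was just above the highest control (log2 difference 1.16 ± 0.32 SE, limma adjusted p = 0.0361). MIR25, which is processed from the same transcript as MIR106B, was at 1133, 1882, 1931 and 1651 in control livers and at 3925, 3191, 2711 and 2247 in BPA livers (log2 difference 0.87 ± 0.25 SE, limma adjusted p = 0.0417). MIR22, which targets the oestrogen receptor ESR1, was at 2725, 2775, 3248 and 3974 in controls and at 8541, 6847, 4216 and 4192 in BPA livers (log2 difference 0.85 ± 0.26 SE, limma adjusted p = 0.0496). In all 3 the rise was larger in sheep 910 and 918. Their calls were lost in several settings: MIR125B was called in 13, MIR25 in 10 and MIR22 in 8 of 17.

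MIR409, MIR154A and MIR381 lie in the imprinted DLK1-DIO3 region, whose large miRNA clusters are expressed from the maternal chromosome. MIR409 was at 84.0, 62.2, 122 and 69.7 in control livers and at 272, 247, 188 and 165 in BPA livers (log2 difference 1.38 ± 0.30 SE, limma adjusted p = 0.0093). MIR154A was at 17.5, 13.3, 17.9 and 15.8 in controls and 2.92, 4.16, 8.27 and 5.38 in BPA livers (log2 difference -1.53, limma adjusted p = 0.0124), and MIR381 was at 24.5, 14.8, 22.3 and 25.4 in controls and 5.31, 7.13, 8.76 and 14.5 in BPA livers (log2 difference -1.25, limma adjusted p = 0.0417). Both falls rest on few reads, 5 to 12 per control liver and 7 to 17 per BPA liver for MIR154A, and 7 to 15 and 12 to 27 for MIR381. With 1 size factor over the 4 tables MIR154A was at -0.22 (limma adjusted p = 0.647) and MIR381 at 0.12, and neither was called. Over 17 settings MIR154A was called in 13 and MIR381 in 6. The other 24 of the 27 tested members of the region did not pass, so 3 of 27 were called, a share near the 11.5% of all tested miRNAs, and the median log2 difference of the 27 was 0.24, against 0.05 over all 78 miRNAs. MIR543 of the same region was at 7, 26.7, 40.2 and 47.5 in controls and 190, 123, 63.8 and 39.8 in BPA livers and overlapped (log2 difference 1.79, limma adjusted p = 0.0582). MIR136, which lies opposite the imprinted gene RTL1, was at 26.7 to 59.5 in controls and 6.54 to 28.5 in BPA livers (log2 difference -1.36, limma adjusted p = 0.0582).

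**Figure D2:**
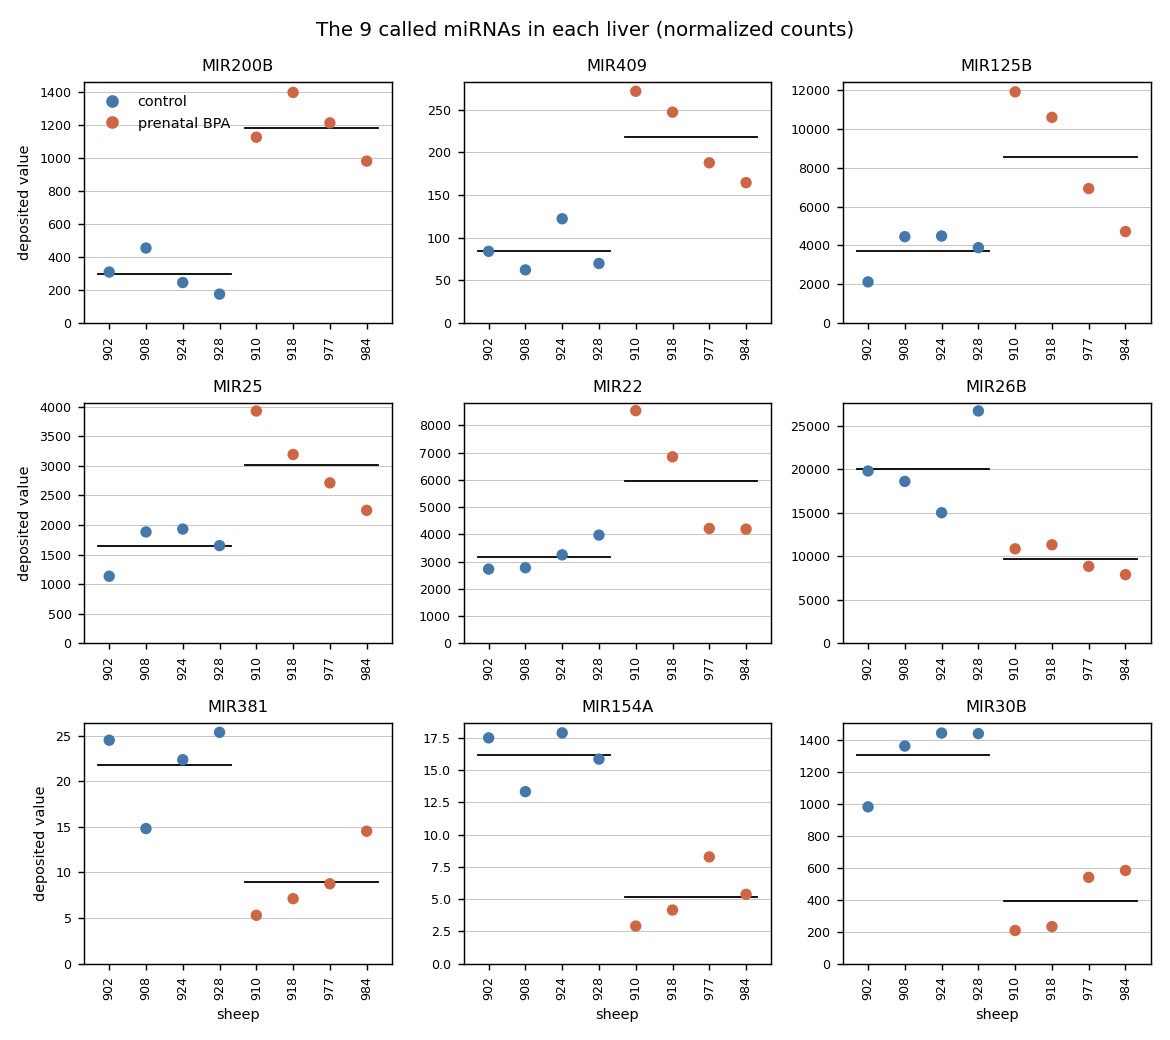
Deposited value (normalized count, linear axes from 0) of the 9 called miRNAs in each of the 8 livers, control in blue and BPA in orange, with black lines at the group means. In each panel the BPA livers lie on one side of the control livers, as for MIR30B with 983 to 1445 in controls and 208 to 584 in BPA livers.

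A ratio of reads of 2 miRNAs within a library does not depend on any size factor. Ratios were taken for the 6 pairs of tested or listed miRNA genes that lie within 10 kb of each other outside the DLK1-DIO3 region, and for MIR26B over MIR26A. These ratios were chosen after the data were seen. MIR200A reads per MIR200B read were 1.82, 1.82, 1.75 and 1.69 in control livers and 0.288, 0.283, 0.463 and 0.558 in BPA livers. The control livers were close together and the order of the 2 genes was turned in all BPA livers. MIR30D reads per MIR30B read were 4.24, 5.40, 4.20 and 4.66 in controls and 35.2, 28.6, 12.5 and 10.7 in BPA livers. MIR26B reads per MIR26A read were 0.332 to 0.464 in controls and 0.170 to 0.201 in BPA livers. MIR106B reads per MIR25 read were 0.150 to 0.244 in controls and 0.106 to 0.145 in BPA livers. These 4 ratios did not overlap between the groups (exact permutation p = 0.0286 each, two-sided, and 0.05 after Benjamini-Hochberg adjustment over the 7 ratios, which is at the threshold and not under it). Each of these 4 ratios holds a miRNA called above in the same livers (MIR200B, MIR30B, MIR26B or MIR25), so they are a description and no separate support. The other 3 ratios, which hold no called miRNA, overlapped, with exact permutation adjusted p from 0.36 to 0.8. In MIR23A over MIR27A, BPA livers 910 and 918 were at 0.327 and 0.372 and BPA livers 977 and 984 at 0.690 and 0.855, on both sides of the controls (0.591 to 0.745).

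**Figure D3:**
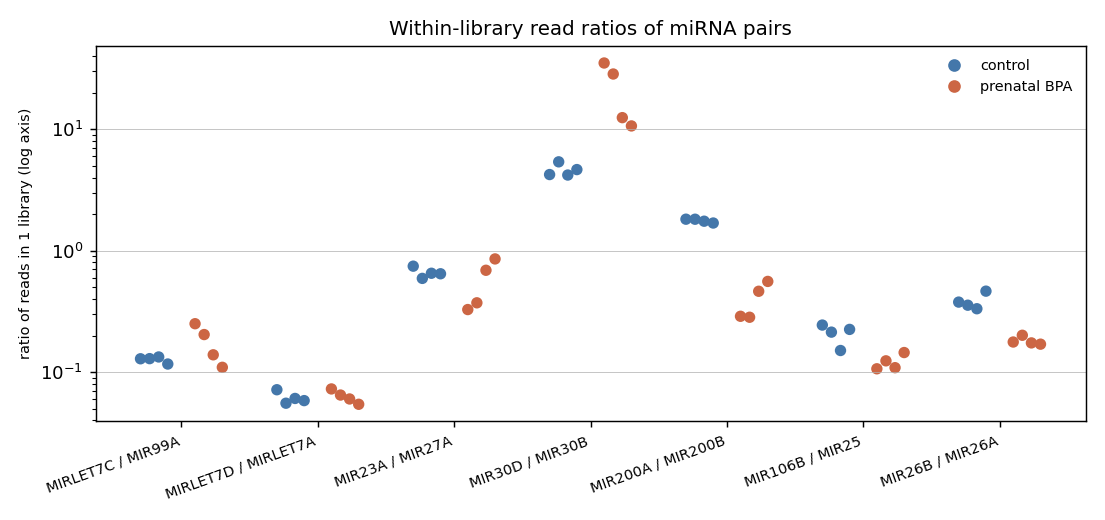
Ratio of the reads of 2 miRNAs within each library (log axis) for 7 pairs, with the 4 control livers in blue and the 4 BPA livers in orange. The ratio of MIR200A to MIR200B was 1.69 to 1.82 in controls and 0.283 to 0.558 in BPA livers, and the ratios of MIRLET7C to MIR99A, MIRLET7D to MIRLET7A and MIR23A to MIR27A overlapped.

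The bulk of the miRNA pool was shared by both groups. The 8 miRNAs with the highest mean in control livers were MIR26A, MIR148A, MIR99A, MIRLET7G, MIR143, MIR26B, MIRLET7F and MIRLET7A. Together they held 64.8% to 68.9% of the miRNA reads of control livers and 63.1% to 66.5% of those of BPA livers, and 7 of them were also among the 8 highest of the BPA livers. Of the 8, MIR26B alone was called, and the other 7 had log2 differences from -0.28 (MIR99A) to 0.17 (MIRLET7A), all with overlapping groups. None of the 7 tested let-7 miRNAs, which hold back growth and raise insulin resistance when abundant, passed the test (median log2 difference 0.12). Of 14 tested miRNAs of insulin and lipid metabolism, MIR22 rose, MIR26B fell and 12 did not pass, which is near the 11.5% called among all tested miRNAs. These 14 count MIR181A and MIR29B with 2 gene copies each, whose values were nearly the same. MIR103 and MIR107, which lower insulin sensitivity in liver, had log2 differences of 0.32 and 0.11. In the fibrosis list of 10 tested members, MIR200B was the single one called. MIR29A, which restrains collagen genes, was at 5284 to 6090 in controls and 3559 to 4707 in BPA livers without overlap, but did not pass (log2 difference -0.52, limma adjusted p = 0.079). Among the oestrogen-receptor-linked miRNAs MIR22 rose, MIR191 was at 1564 to 3677 in controls and 3370 to 7477 in BPA livers (log2 difference 0.96, limma adjusted p = 0.0582), and MIR221 at 345 to 730 and 435 to 703 (0.36, limma adjusted p = 0.502). Of the lists that mark other cell types, no leukocyte (3 tested), endothelial (2), erythroid (1) or striated-muscle (1) member passed, 1 of 6 fibroblast and smooth-muscle members (MIR125B) and 1 of 4 epithelial members (MIR200B) rose, and the summed epithelial list was at 9230 to 11097 in controls and 10780 to 11787 in BPA livers. MIR194, which the liver-enriched list also holds, makes up most of that sum. Without it, the 3 miR-200 members summed to 482 to 1367 in controls and 1504 to 1965 in BPA livers, most of the latter from MIR200B. The part of a shift in cell types in these results was not tested.

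More of the snoRNAs were called. Of 212 tested, 106 were called, or 50.0%, with 50 higher (23.6%) and 56 lower (26.4%) relative to the other snoRNAs. Some loci are near-identical copies to which the same reads were counted, and the 106 called loci are 90 distinct read profiles, 48 higher and 42 lower. The calls of the higher ones depend on the scale. With 1 size factor over the 4 tables, 21 snoRNAs were called higher and 84 lower. The size factors of the miRNA table moved the median snoRNA to -2.06. On that scale none was called higher and 120 were called lower, all 56 of the lower calls among them. Called lower in each of 18 settings were 23 snoRNAs, or 18 distinct read profiles, and none was called higher in each.

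The largest named fall was that of LOC114114248, of 134 nt, which lies within the lncRNA gene LOC101110918. It was at 440, 1095, 437 and 698 in control livers and at 25.7, 6.48, 27.4 and 12.0 in BPA livers (log2 difference -5.23 ± 0.52 SE, limma adjusted p = 1.48e-04). In reads that was 452, 1314, 401 and 649 in controls against 72, 7, 19 and 7 in the deeper BPA libraries, so the fall was present before any scaling. LOC114113367, of 204 nt, in RCC1, the exchange factor of the nuclear GTPase Ran, was at 22.9 to 50.7 in controls and 0 to 4.33 in BPA livers (log2 difference -3.57, limma adjusted p = 7.26e-04). LOC114108878, in the ribosomal protein gene RPS3A, was at 53.6 to 107 in controls and 5.77 to 12.0 in BPA livers (log2 difference -2.90). LOC114118597, in the chaperone gene HSPA8, was at 65.4 to 112 in controls and 6.78 to 15.9 in BPA livers (log2 difference -2.94, limma adjusted p = 3.08e-04 for this and the RPS3A snoRNA). A second snoRNA of HSPA8, LOC114118596, was at 337 to 505 in controls and 221 to 609 in BPA livers and was not called (log2 difference -0.10, limma adjusted p = 0.833).

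Among the snoRNAs that rose on the table's own scale, LOC114110868 in CCAR1 was at 4.87, 3.33, 3.27 and 3.23 in control livers and at 25.7, 26.9, 44.7 and 32.5 in BPA livers (log2 difference 2.82 ± 0.32 SE, limma adjusted p = 2.51e-04). The control values stand for 3 to 5 reads each. They lie below the mean of 5 needed for testing, which this snoRNA reached only through its BPA values. LOC114117661, in the lncRNA gene LOC105609544, was at 88.7, 158, 215 and 92.6 in controls and 670, 557, 819 and 609 in BPA livers (log2 difference 2.34). LOC114118122, in AP1G1, was at 2.92 to 7.63 in controls and 23.9 to 36.1 in BPA livers (log2 difference 2.43). LOC114117376, of 65 nt, was at 10.7 to 39.2 in controls and 119.2 to 236 in BPA livers (log2 difference 2.95). None of these 4 was called on the size factors of the miRNA table, where they were at 0.79, 0.10, 0.42 and 0.75 (limma adjusted p from 0.21 to 0.84).

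Because several snoRNAs can come from introns of a single host transcript, they were also read by host. By the reference gene positions, 165 tested snoRNAs lie within 103 host genes, and 35 hosts hold at least 2 tested snoRNAs with distinct reads. In 12 of these hosts snoRNAs were called higher only, in 8 lower only, in 6 both ways and in 9 none was called. Of all tested snoRNAs, 23.6% were called higher and 26.4% lower. All 3 of LOC105609544 rose, with log2 differences from 1.56 to 2.73, and both of EEF1B2, a translation elongation factor gene, rose (2.39 and 2.71). All 3 of WDR43, a gene for ribosomal RNA processing, fell, with log2 differences from -2.21 to -0.91. The 7 tested snoRNA loci in TEX14 are 4 distinct read profiles, and 6 of the loci fell. Among those that fell, LOC114117127, LOC114117128, LOC114117129 and LOC114117131 are near-identical copies.

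In the hosts with calls both ways, among them C23H18orf32, EIF4A2, TAF1D, ATP5F1B and RPS3A, the ratio of the 2 snoRNAs does not depend on scaling, since both are read from the same library. The calls do: 0 snoRNAs were called higher with the size factors of the miRNA table. The pairs were picked for this split, so their ratios are a description. In C23H18orf32, reads of LOC114110518 (64 nt) per read of LOC114110520 (66 nt) were 0.626, 0.384, 0.650 and 0.691 in controls and 5.06, 5.68, 5.33 and 4.56 in BPA livers. These livers were close together within each group, which was not so in every host. In TAF1D the ratio of LOC114110210 (137 nt) to LOC114110216 (131 nt) was 0.069 to 0.4 in controls and 0.667 to 3.75 in BPA livers. The part of length in these ratios was not tested. In EIF4A2 the ratio of LOC114111253 (132 nt) to LOC114111371 (177 nt) was 0.108 to 0.667 in controls and 3.88 to 9.50 in BPA livers.

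snoRNA differences also varied with length. On the deposited scale, of the 70 tested snoRNAs of 60 to 79 nt 23 rose and 8 fell (median log2 difference 0.81), and of the 45 of 80 to 99 nt 13 rose and 9 fell (0.47). Of the 10 of at least 100 and under 120 nt, which are 6 distinct read profiles, 0 rose and 8 fell (-2.44). Of the 53 of 120 to 139 nt, 9 rose and 14 fell (-0.53), and of the 21 of 140 nt and over 1 rose and 11 fell (-1.43). With the size factors of the miRNA table the medians of the same 5 bands were -1.20, -1.55, -4.48, -2.61 and -3.39, all of them below 0. These bands were set after the data were seen. Over all 212 tested snoRNAs, 23.6% rose and 26.4% fell on the deposited scale.

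**Figure D4:**
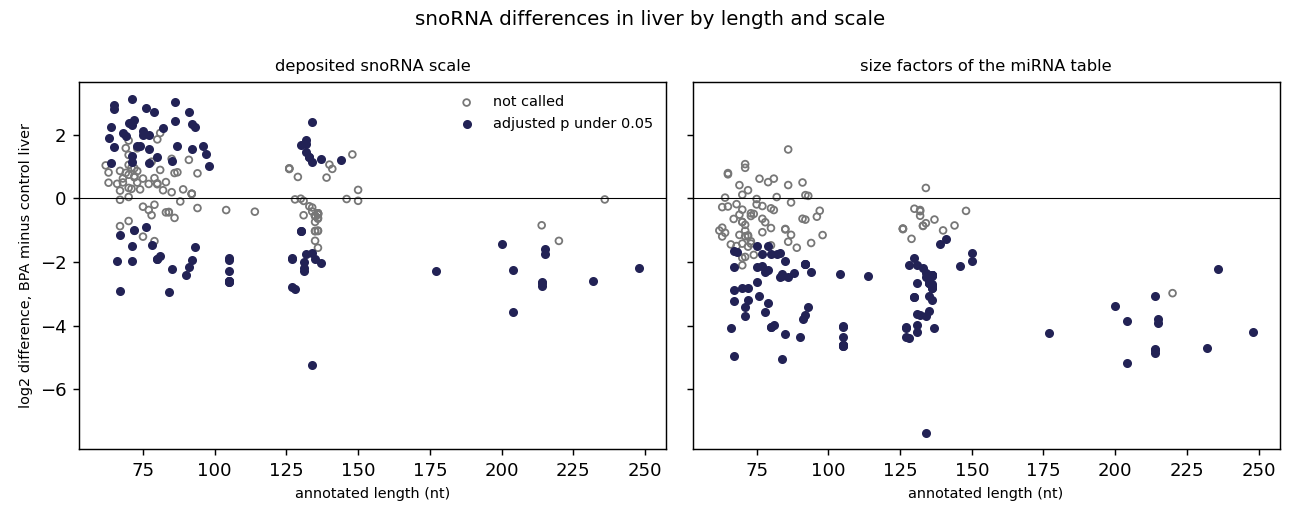
log2 difference (BPA minus control liver) of the tested snoRNAs with a known length against that length in nt, on the deposited scale (left) and with the size factors of the miRNA table (right); filled points have a limma adjusted p under 0.05. The band of 60 to 79 nt has a median of 0.81 on the left and -1.20 on the right, and that of 140 nt and over has -1.43 and -3.39.

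snRNAs were called most often, 45 of 53 tested or 84.9%, with 25 higher (47.2%) and 20 lower (37.7%) relative to the class. For 81.1% of the tested loci the groups did not overlap. Loci were tested at a mean deposited value of at least 5, which some that were low in controls reached only through their BPA values. The number of higher calls and these shares are thus partly set by that filter. Many snRNA loci are copies that share reads, and the 45 are 25 distinct read profiles, 15 higher and 10 lower. The split of directions depends on the test and the scale: edgeR on the recovered reads called 5 higher and 27 lower, DESeq2 24 higher and 13 lower, and the size factors of the miRNA table gave 0 higher and 29 lower with a median snRNA at -4.75. LOC114115462 and LOC114115947, both lower, were the loci called in each of 18 settings.

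The table gives no snRNA type, so loci were grouped by their annotated length in bands of 20 nt, a grouping chosen after the data were seen. In mammals U1 snRNA falls in the band of 160 to 179 nt and U2 snRNA in that of 180 to 199 nt, as background; the loci here were not typed by sequence. Loci of 160 to 179 nt gave 73.5%, 83.1%, 48.1% and 81.0% of the snRNA reads of control livers and 42.9%, 32.4%, 36.9% and 29.9% of those of BPA livers. Per 10000 miRNA reads they gave 3031, 1035, 1259 and 3006 reads in controls and 12.0, 5.29, 7.01 and 4.09 in BPA livers. Loci of 180 to 199 nt gave 129, 7.52, 5.19 and 12.5 reads per 10000 miRNA reads in controls and 9.28, 5.95, 7.05 and 5.83 in BPA livers. This band overlapped between the groups, and within it control 902 stood far above the other 7 livers. The 3 shorter bands, from 100 to 159 nt, together had few reads, 0.806 to 5.57 per 10000 miRNA reads in a control liver and 0.281 to 0.625 in a BPA liver for any band. Loci without an entry in the reference table gave 197 to 1350 in controls and 2.63 to 4.94 in BPA livers. Most of the difference in snRNA reads therefore lay in the band of 160 to 179 nt and in the loci of unknown length. All 19 tested loci of 160 to 179 nt were called lower on the size factors of the miRNA table, and none of the 11 tested loci of 180 to 199 nt was. On the deposited scale, 14 of the former fell and none rose, and 10 of the latter rose and none fell. These counts include copies that share reads. With near-identical loci counted once, loci with reads went from 31 to 21 in the band of 160 to 179 nt. In the band of 180 to 199 nt they went from 20 to 14.

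LOC114115462, of 164 nt, had 8249, 7166, 9882 and 11625 reads in the control livers and 324, 56, 122 and 78 in the BPA livers. Its deposited values were 1564, 1970, 3281 and 2301 in controls and 646, 405, 560 and 352 in BPA livers, a much smaller gap (log2 difference -2.20 ± 0.31 SE, limma adjusted p = 9.26e-05, against -8.58 on the size factors of the miRNA table). LOC114115947, also of 164 nt, had 593 to 1908 reads in controls and 2 to 27 in BPA livers (deposited log2 difference -3.38, limma adjusted p = 1.40e-04). LOC114117093 and LOC114117060, near it in size, had log2 differences of -2.05 and -1.94 (limma adjusted p = 0.0015 and 0.0023). LOC114109241 was at 438, 245, 3226 and 424 in control livers and 53.8, 152, 55.1 and 27.1 in BPA livers, so control 924 stood apart (log2 difference -3.36).

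The named rises of loci of 126 and 141 nt rest on few reads, and the rises depend on the size factors. The band of 180 to 199 nt, with 10 of the rises, had more reads. They were 116 to 1222 per control liver and 344 to 1284 per BPA liver. LOC114113424, of 126 nt, had 4, 1, 2 and 4 reads in the control livers and 18, 11, 6 and 12 in the BPA livers, yet its deposited values were 0.275 to 0.792 in controls and 27.5 to 79.5 in BPA livers (log2 difference 4.85 ± 0.37 SE, limma adjusted p = 4.44e-06). A single read stood for a deposited value of 0.19 to 0.332 in a control liver and of 1.99 to 7.23 in a BPA liver. On the size factors of the miRNA table this locus was at -0.17 (limma adjusted p = 0.853). LOC114108902, of 141 nt, was at 0 to 1.90 in controls and 22.6 to 43.9 in BPA livers (log2 difference 4.45, and 0.27 on the miRNA scale). LOC114108901 and LOC114118780, of 141 nt, are copies with the same values, 0 to 1.71 in controls and 18.1 to 45.9 in BPA livers (4.16, and -0.82 on the miRNA scale). LOC114110196, of 191 nt and chosen after its values were seen, had 197, 40, 25 and 38 reads in controls and 217, 63, 86 and 63 in BPA livers, while its deposited log2 difference was 4.81.

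**Figure D5:**
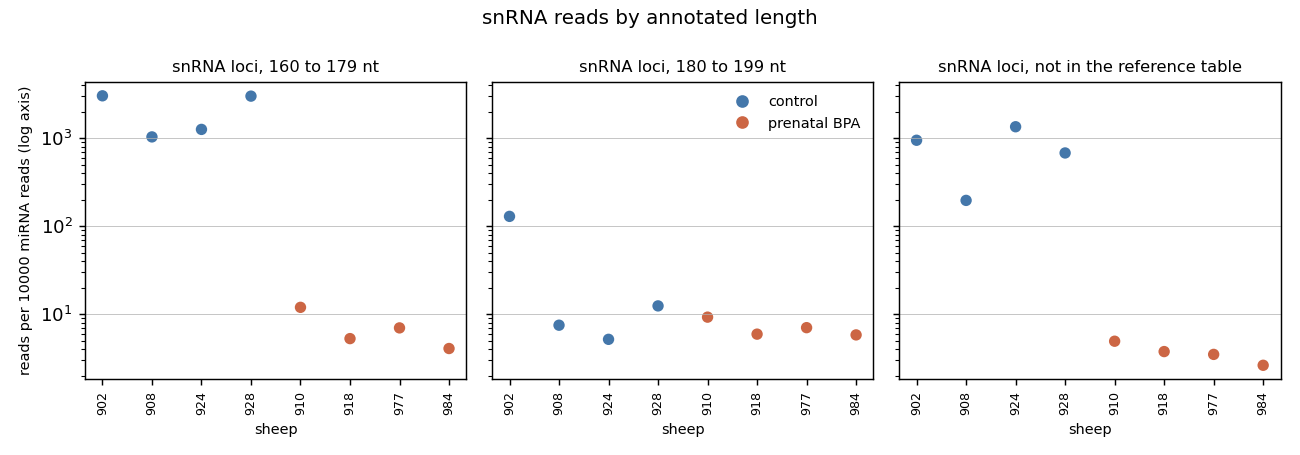
snRNA reads per 10000 miRNA reads (log axis) in each liver for loci of 160 to 179 nt, of 180 to 199 nt and without a length in the reference table, control in blue and BPA in orange. The first band was at 1035 to 3031 in controls and 4.09 to 12.0 in BPA livers, and the second at 5.19 to 129 and 5.83 to 9.28.

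Of 124 tested lncRNA loci, 44 were called, or 35.5%, with 20 higher (16.1%) and 24 lower (19.4%), and 16 were called the same way in each of 18 settings, 5 higher and 11 lower. With the size factors of the miRNA table, which moved the median locus from 0.06 to -0.89, 6 were called higher and 38 lower. LOC105607806 was at 742, 2217, 2300 and 2911 in control livers and at 30.8, 19.0, 31.8 and 41.3 in BPA livers (log2 difference -5.89 ± 0.52 SE, limma adjusted p = 6.09e-06). In reads it had 474, 1523, 1779 and 1746 in controls and 96, 24, 47 and 49 in BPA livers. The locus contains a glycine tRNA gene and the snRNA gene LOC114117043, which had 0 reads in all 8 livers. LOC114118468, which contains 3 tRNA genes, was at 2833, 3348, 2737 and 3183 in controls and 253, 130, 153 and 93.6 in BPA livers (log2 difference -4.34, limma adjusted p = 7.08e-06). It gave 4.67% to 9.87% of the lncRNA reads of control livers and 0.109% to 0.278% of those of BPA livers. LOC101112291, with no small RNA gene inside it in the reference table, was at 92.3 to 205 in controls and 2.03 to 8.66 in BPA livers (log2 difference -4.69).

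Among the loci that rose, LOC105603426 was at 28.2, 40.8, 28.4 and 25 in control livers and at 243, 229, 162 and 196 in BPA livers (log2 difference 2.73 ± 0.42 SE, limma adjusted p = 4.96e-04). LOC114110055 was at 9.39 to 34.9 in controls and 94.7 to 241 in BPA livers (log2 difference 2.74). LOC105609364 was at 95.5, 425, 291 and 132 in controls and 2557, 2018, 986 and 740 in BPA livers (log2 difference 2.80). These 3 loci contain no annotated small RNA gene and were also called higher on the size factors of the miRNA table (1.72, 1.75 and 1.78). LOC105603102 was at 11.0 to 38.8 in controls and 83.8 to 145 in BPA livers (log2 difference 1.80). The most abundant locus, LOC114110111, held 29.9% to 33.8% of the lncRNA reads of control livers and 41.9% to 51.9% of those of BPA livers, and its deposited values were 8804 to 19789 and 36700 to 44724 (log2 difference 1.47, limma adjusted p = 0.0022). LOC105608013 was at 1205 to 4440 in controls and 6074 to 9038 in BPA livers (log2 difference 1.43, limma adjusted p = 0.0203, and 0.39 on the miRNA scale). LOC105602212, which contains MIR125B, was at 3085 to 7743 and 6157 to 9568 and was not called (0.47, limma adjusted p = 0.336).

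Some reads stand in 2 tables and show how far the separate scaling moves a result. The lncRNA locus LOC114116957 has 7792 reads over the 8 livers and the snoRNA LOC114117067 inside it has 7787, library by library nearly the same. In the snoRNA table it rose, from 86.7, 241, 389 and 203 to 1524, 1573, 773 and 616 (log2 difference 2.35, limma adjusted p = 0.0029), whereas in the lncRNA table the locus was at 139, 421, 462 and 317 and at 1370, 1345, 363 and 304, overlapped and was not called (1.14, limma adjusted p = 0.166). LOC105605445 (7677 reads), which contains MIR221 (6558 reads), rose by 1.56 in the lncRNA table (limma adjusted p = 0.0203), while MIR221 was at 0.36 in the miRNA table. LOC101110918 (2958 reads) and the snoRNA LOC114114248 (2921 reads) fell in both tables (log2 differences -5.99 and -5.23). By the reference table, of the 29 tested lncRNA loci that contain a small RNA gene 4 rose and 6 fell. Of the 31 that contain none 8 rose and 5 fell, and of the 64 without an entry in it 8 rose and 13 fell. Over all 124 tested lncRNA loci, 16.1% rose and 19.4% fell.

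Muscle of the same animals gave a measure of whether a liver difference went beyond that tissue. Control muscle has library codes 73, 74, 75 and 76, and BPA muscle has 77, 78, 79 and 97. In liver the codes are spread otherwise, so in this contrast code range and a tissue-dependent BPA effect cannot be told apart. The difference between the BPA effect in liver and in muscle was called for 2 of the 9 called miRNAs (2.63% of all tested miRNAs), MIR200B (2.08, limma adjusted p = 0.0344) and MIR30B (-1.77, limma adjusted p = 0.0215). With the animal as a block neither was called (limma adjusted p = 0.2 and 0.092). It was called for 68 of 102 liver-called snoRNAs that could be tested (45.5% of all tested), 34 of 36 snRNAs (81.0%) and 32 of 41 lncRNA loci (28.8%). With the animal as a block it was called for 67 of those 102 snoRNAs, for 26 of 36 snRNAs and for 26 of 41 lncRNA loci. This contrast was fitted on the deposited scale of each class alone, and its dependence on the scale was not tested. A liver-called transcript was by its choice far from 0 in liver, so these shares are a description.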

How the data were processed

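The values deposited by the authors are a signal, reads over a size factor, in 4 tables. Per the submitters' processing notes the tools were featureCounts 1.6.1, STAR 2.6.0c and cutadapt 3.2. Genome build and normalization tool: not given in the sources used here. Every value was a whole multiple of 1 step per library (100%, tolerance 0.001), which gave the reads. The deposited size factors equal a median of ratios within liver and table.

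The 8 liver libraries, 4 per group, were compared with limma 3.58.1 (R 4.3.3) on log2(value + 1), with a mean-variance trend, for transcripts with a mean of at least 5, two-sided, Benjamini-Hochberg within a table, threshold 0.05. log2 differences understate changes of low transcripts. edgeR 4.0.16 and DESeq2 1.42.0 ran on recovered reads. Class shares and ratios used exact permutation tests (scipy 1.17.1). Near-identical loci differ by at most 5% of their reads (at least 20). Livers of a group differed beyond sampling noise (chi-square per degree of freedom at least 19.0). The scripts were tested on simulated data.

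Named transcripts are all called miRNAs, the 3 next by p and the 8 highest, and in other classes the 4 higher and 4 lower with the smallest p (at least 40 reads, listed in RefSeq) and the 4 highest. The members and lists were chosen with earlier results of these data known. Names, lengths and nesting come from RefSeq (ARS-UI_Ramb_v3.0), which held 78 of 78 tested miRNAs, 199 of 212 snoRNAs, 42 of 53 snRNAs and 60 of 124 lncRNA loci. Replicate numbers are animals, so liver and muscle pair: their deviations correlated by -0.22 to 0.13 over 462 transcripts. Planned groupings by miRNA seed and snRNA type were not run, since no sequences were used here. One snoRNA host gene is not reported here.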

Additional observations from a re-analysis of the deposited data

Results flagged for a closer look

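In 5 of 108 groups of 4 livers looked at, 1 liver lay apart from the other 3 by more of the group's range than Dixon's critical value at 95% allows. Chance gives about 1 in 20 such groups. MIR148A was at 50982 in control 928, MIRLET7A at 13069 in control 902, and the snoRNA LOC114110868 at 4.87 in control 902, which stands for 5 reads. The snRNA LOC114109241 was at 3226 in control 924, and the lncRNA locus LOC105603102 at 145 in BPA 984.

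For 28 of the named transcripts the BPA effect on the deposited scale differed between liver and muscle (limma interaction, adjusted over each table). The values are the liver effect minus the muscle effect in log2 units. Among miRNAs, the difference was above 0 for MIR200B (2.08) and below 0 for MIR30B (-1.77). Among snoRNAs, the difference was above 0 for LOC114117376 (2.95), LOC114117661 (2.33), LOC114118122 (1.94), LOC114110868 (3.27) and below 0 for LOC114113367 (-3.83), LOC114114248 (-4.70), LOC114118597 (-2.14), LOC114108878 (-3.76). Among snRNA loci, the difference was above 0 for LOC114113424 (5.43), LOC114118780 (4.33), LOC114108901 (4.33), LOC114108902 (4.75) and below 0 for LOC114115462 (-2.36), LOC114115947 (-3.18), LOC114117093 (-2.63), LOC114117060 (-2.45), LOC114109241 (-3.55). Among lncRNA loci, the difference was above 0 for LOC105608013 (1.55), LOC105609364 (2.29), LOC105603102 (2.04), LOC105603426 (3.26), LOC114110111 (1.73) and below 0 for LOC101110918 (-6.02), LOC105607806 (-7.16), LOC114118468 (-4.57), LOC101112291 (-4.26). With the animal as a block 25 of the 28 were called, and MIR200B, MIR30B and LOC105608013 were not. Pooled over the 4 tables the interaction was called for 168 of 462 transcripts. It was fitted on the deposited scale of each class alone, and its dependence on the scale was not tested. In liver, none of the snoRNAs and snRNA loci listed above 0 was called higher with the size factors of the miRNA table. Library codes are spread differently over the groups in liver and in muscle, so code range and a tissue-dependent BPA effect cannot be told apart here.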

How the results depend on the processing

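Over 831 pairs of a named transcript and an alternative, 723 kept direction and side of the threshold, 56 lost the call, 26 gained one in the same direction and 26 changed sign. Of the last, 17 were called under neither setting. With 1 size factor over the 4 tables the called MIR26B (0.44) and MIR381 (0.12) and the uncalled MIR136 (0.049) turned positive without a call, and MIR148A (1.42), MIR99A (1.19) and MIRLET7G (1.23) were called higher. With the size factors of the miRNA table the called LOC114113424 (-0.17) and the copies LOC114108901 and LOC114118780 (-0.82 each) turned negative without a call, and LOC105602212 (-0.56) was called lower. The other sign changes, all uncalled, were MIR26A (-0.11), MIRLET7F (-0.11), MIR148A (0.42) and LOC114118596 (0.47) with the code range as a covariate, MIR148A (0.023) and LOC114118596 (0.19) under edgeR, LOC114118596 (0.012) under DESeq2, and with 1 liver left out MIR26A (-0.017 to 0.12), MIR148A (-0.23 to 0.060), MIR143 (-0.090 to 0.29), MIRLET7A (-0.038 to 0.34) and LOC114118596 (-0.31 to 0.18). Called with that single size factor were 65 miRNAs (65 higher and 0 lower) and 29 snRNAs, and with the miRNA size factors 29 snRNAs. A single adjustment over all transcripts called 15 miRNAs, and with the code range as a covariate 68 snoRNAs. Calls of either direction shifted under edgeR to 7 higher and 4 lower miRNAs, 63 and 50 snoRNAs, 5 and 27 snRNAs, and 29 and 19 lncRNA loci. Thinned to the shallowest library, 7 miRNAs, 94 snoRNAs, 34 snRNAs and 36 lncRNA loci were called. Leaving out 1 liver gave 4 to 15 miRNAs (4 without BPA 918, 5 without BPA 910, 15 without BPA 984), 85 to 100 snoRNAs, 33 to 47 snRNAs and 27 to 49 lncRNA loci (27 without control 928). Log2 differences of the class shares then ran from 0.31 to 0.42 for miRNAs, -1.56 to -1.04 for snoRNAs, -7.10 to -6.64 for snRNAs and 0.19 to 0.29 for lncRNAs, with fewer assignments to permute and exact permutation adjusted p of up to 0.114. Within library codes up to 79 they were 0.52, -2.47 and -7.47 for miRNAs, snoRNAs and snRNAs. The lncRNA share was at -0.12 per 100 miRNA reads and at 0.12 (exact permutation adjusted p = 0.229) with near-identical loci counted once, an alternative chosen after seeing the data.

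No paired analysis was possible because control and BPA livers come from different animals that share no number. For the liver and muscle contrast, the fit with the animal as a replicate block called 145 transcripts against 168 without it, and of the liver-called transcripts 67 snoRNAs, 26 snRNAs, 26 lncRNA loci and 0 miRNAs. Groupings by seed and by snRNA type were not run.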
